A study of Homo sapiens with 8 samples.

Results

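The metallothionein genes *MT1E*, *MT1F*, *MT1G*, *MT1L*, *MT1M*, *MT1X* and *MT2A*, the transcription factor gene *MTF1* and the zinc exporter gene *SLC30A1* were examined in RNA-seq libraries of a pair of human breast epithelial cell lines. The 9 genes were chosen as a functional group by symbol, and 8 of them are among the 13842 genes of the deposited table. *MT1M* was not analysed here. The study asked what the long non-coding RNA *MALINC1* does to the transcriptome of normal and pre-invasive breast cells. MCF10A, an immortalized and non-tumorigenic line, and MCF10 DCIS.COM (DCIS.COM), a derivative of the same lineage that models ductal carcinoma in situ, were stably transduced with the lentiviral vector pLOC carrying *MALINC1* (pLOC-*MALINC1*) or nothing (pLOC-empty). All cells were selected with blasticidin. Each of the 4 groups has 2 libraries, and the sources used here do not say whether these came from separate cultures, so that p-values measure only the spread between these libraries, which may be technical.

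The lines were not grown alike. MCF10A medium held horse serum, epidermal growth factor, hydrocortisone, insulin and cholera toxin, whereas DCIS.COM medium held horse serum without the other additives. A difference between the lines therefore cannot be told apart from a difference between the media, and only the comparisons of pLOC-*MALINC1* with pLOC-empty within a line share a medium. In bulk RNA, fewer cells with a transcript and less of it per cell cannot be told apart either.

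Metallothioneins are small, cysteine-rich proteins that bind zinc, copper and cadmium and buffer the free metal in the cell. MTF1 is the zinc-sensing transcription factor that binds metal response elements (MREs) in the promoters of metallothionein genes and of *SLC30A1*, whose product (ZnT1) carries zinc out across the plasma membrane. Metallothionein genes are also known to respond to glucocorticoids such as hydrocortisone, and in breast tissue their proteins are found mainly in myoepithelial cells.

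The metallothionein genes lie side by side on chromosome 16. In GRCh37 (hg19), they run from *MT2A* (56642496 to 56643409) through *MT1L* (56651475 to 56652592), *MT1E* (56659387 to 56661024), *MT1F* (56691643 to 56694610) and *MT1G* (56700642 to 56701977) to *MT1X* (56716382 to 56718108), all on the plus strand except *MT1G*. The span of these genes is 75.6 kb. GENCODE lists *MT1L* as a transcribed pseudogene and the others as protein coding. *MTF1* (38275246 to 38325264) and *SLC30A1* (211744910 to 211752503) lie on the minus strand of chromosome 1.

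Promoter sequences were taken from RefSeq (GRCh38.p14) for the 4 genes matched there. They are shown because they differed in the motifs they hold, and a relation to the levels of the genes was not tested. Each is the 250 bases before the annotated start, 5′ to 3′ on the strand of the gene. The capitals mark the MRE core, TGCACNC or TGCGCNC on either strand. The *MT2A* promoter spans chr16:56608334-56608583 (plus strand), the *MT1X* promoter chr16:56682220-56682469 (plus strand), the *SLC30A1* promoter chr1:211579162-211579411 (minus strand) and the *MTF1* promoter chr1:37859593-37859842 (minus strand).
MT2A: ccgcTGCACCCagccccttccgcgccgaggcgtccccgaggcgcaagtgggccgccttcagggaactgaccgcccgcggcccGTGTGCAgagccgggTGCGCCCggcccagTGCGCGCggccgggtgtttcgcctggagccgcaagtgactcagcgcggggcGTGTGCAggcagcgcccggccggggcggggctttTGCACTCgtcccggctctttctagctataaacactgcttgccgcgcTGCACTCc
MT1X: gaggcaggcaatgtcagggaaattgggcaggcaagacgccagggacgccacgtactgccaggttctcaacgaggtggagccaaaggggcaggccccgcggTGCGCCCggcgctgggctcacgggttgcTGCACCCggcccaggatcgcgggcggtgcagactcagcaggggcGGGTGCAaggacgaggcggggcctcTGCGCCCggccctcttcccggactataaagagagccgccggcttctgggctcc
SLC30A1: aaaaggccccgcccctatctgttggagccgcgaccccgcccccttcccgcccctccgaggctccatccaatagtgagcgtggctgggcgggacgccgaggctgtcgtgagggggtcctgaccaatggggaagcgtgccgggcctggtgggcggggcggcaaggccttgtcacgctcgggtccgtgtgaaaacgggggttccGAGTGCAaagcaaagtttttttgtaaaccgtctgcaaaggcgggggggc
MTF1: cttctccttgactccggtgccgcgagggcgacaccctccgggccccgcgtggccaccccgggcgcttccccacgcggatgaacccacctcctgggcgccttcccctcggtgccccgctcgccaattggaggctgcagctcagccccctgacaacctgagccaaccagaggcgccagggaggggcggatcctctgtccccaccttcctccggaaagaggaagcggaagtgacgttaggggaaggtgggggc
The *MT2A* promoter held 7 MRE cores, *MT1X* 4, *SLC30A1* 1 and *MTF1* 0. Of 35116 promoters of the same length, 24.8% held at least 1 such core, 1.58% at least 3 and 0.12% at least 5. The AP-1 motif TGACTCA (either strand) occurred once in *MT2A*, at bases 104 to 98 before the start and in lower case here since it overlaps no MRE core, and in none of the other 3 promoters. It was present in 4.2% of all promoters. These matches describe letters and are not evidence of binding.

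The libraries held between 20604377 and 37550457 reads on genes, so that 1 read was worth 0.0279 to 0.0477 CPM (read counts scaled to the size of the library). Levels below are CPM recovered from the deposited log2 CPM, always with library 1 first. The *MALINC1* label was borne out by its transcript: the level was 1 and 1.51 CPM in MCF10A pLOC-empty against 13.2 and 11.7 CPM in MCF10A pLOC-*MALINC1*, and 1.35 and 1.15 CPM against 24.5 and 19.2 CPM in DCIS.COM. All 7 basal and all 7 luminal epithelial markers were in the table. Basal markers summed to 24576 and 24851 CPM in MCF10A pLOC-empty, 30835 and 30190 CPM in MCF10A pLOC-*MALINC1*, and 4974 to 5305 CPM in DCIS.COM, and luminal markers to 1353 to 1744 CPM and 3503 to 3757 CPM. Of the markers of other cell types, 1 of 5 for fibroblasts (*COL1A1*), 1 of 5 for leukocytes (*CD68*) and 1 of 4 for endothelium (*PECAM1*) was in the table, and these did not exceed 15.9, 11.4 and 7.21 CPM in any library. *PECAM1* was at 6.06 and 7.21 CPM in DCIS.COM pLOC-empty and at 0.0874 and 0.177 CPM in DCIS.COM pLOC-*MALINC1*, a difference that runs with the fall of *MT2A* described next and whose part in it was not tested.

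*MT2A*, which encodes the main metallothionein of most tissues, moved in opposite directions in the 2 lines when *MALINC1* was expressed. In MCF10A its level was 324 and 298 CPM with pLOC-empty (311 ± 18.3, SD, n = 2) and 368 and 432 CPM with pLOC-*MALINC1* (400 ± 44.8, SD, n = 2). In DCIS.COM it was 66.3 and 61.7 CPM with pLOC-empty (64.0 ± 3.28, SD, n = 2) and 27.2 and 25.9 CPM with pLOC-*MALINC1* (26.5 ± 0.907, SD, n = 2). Within each line the groups did not overlap: the *MALINC1* libraries were the higher ones in MCF10A and the lower ones in DCIS.COM. The log2 fold change was 0.36 (SE 0.067, adjusted p = 0.000673) in MCF10A and -1.27 (SE 0.067, adjusted p = 1.85e-08) in DCIS.COM, by limma with Benjamini-Hochberg adjustment over all genes, the test used throughout. A tested difference between these effects of -1.63 (SE 0.094, adjusted p = 3.80e-08) exceeded the spread between libraries. The rise in MCF10A was not past an adjusted p of 0.01 under 3 alternatives, among them leaving out MCF10A pLOC-empty replicate 2 (adjusted p = 0.0131), with a range of adjusted p of 0.0131 to 0.0423 over these 3.

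Basal epithelial markers moved with *MT2A* in part. With *MALINC1* 6 of the 7 rose and 1 fell in MCF10A at an adjusted p under 0.01, where 21.5% and 18.1% of all genes did. Among those that rose were *TP63*, which encodes a basal cell transcription factor (3.04), and *KRT14*, a basal keratin (1.01). In DCIS.COM 2 rose (*KRT5*, 0.38, and *ITGB4*, 0.27) and 3 fell, where 16.7% of all genes fell. There *KRT14* was at -0.59 (adjusted p = 1.45e-07) and *TP63* at -0.19 (adjusted p = 0.0291). The difference of the effects was -1.60 for *KRT14* and lower in DCIS.COM for 5 of the 7 markers, where it was for 20.3% of all genes. The part of these markers in the changes of *MT2A* and *SLC30A1* was not tested.

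*SLC30A1*, the zinc exporter, showed the same pair of directions at smaller size. Its level was 47.1 and 42.6 CPM in MCF10A pLOC-empty and 59.0 and 63.0 CPM in MCF10A pLOC-*MALINC1*. In DCIS.COM the level was 27.94 and 27.97 CPM with pLOC-empty and 20.0 and 20.9 CPM with pLOC-*MALINC1*. Libraries with *MALINC1* were thus all above the controls in MCF10A and all below them in DCIS.COM. The log2 fold changes were 0.44 (SE 0.059, adjusted p = 5.35e-05) and -0.45 (SE 0.059, adjusted p = 5.78e-05), and their difference was -0.90 (SE 0.084, adjusted p = 3.00e-06). With the MCF10A groups fitted alone, the rise had an adjusted p of 0.0113.

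*MTF1*, which encodes the factor that activates both of the genes above, rose in MCF10A. Its level was 14.8 and 15.9 CPM with pLOC-empty and 22.1 and 21.0 CPM with pLOC-*MALINC1*. This was a change of 0.49 on the log2 scale (SE 0.068, adjusted p = 7.36e-05). In DCIS.COM the levels were 17.8 and 17.3 CPM against 19.0 and 19.3 CPM, a log2 fold change of 0.12 (95% interval -0.02 to 0.27, adjusted p = 0.156). The *MALINC1* libraries were the higher ones in both lines, and the DCIS.COM change did not pass the test. The difference between the lines was -0.36 (SE 0.096, adjusted p = 0.00753), and 11 of 18 alternatives left it at an adjusted p of 0.01 or more, up to 0.0335 without MCF10A pLOC-empty replicate 1.

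**Figure D1:**
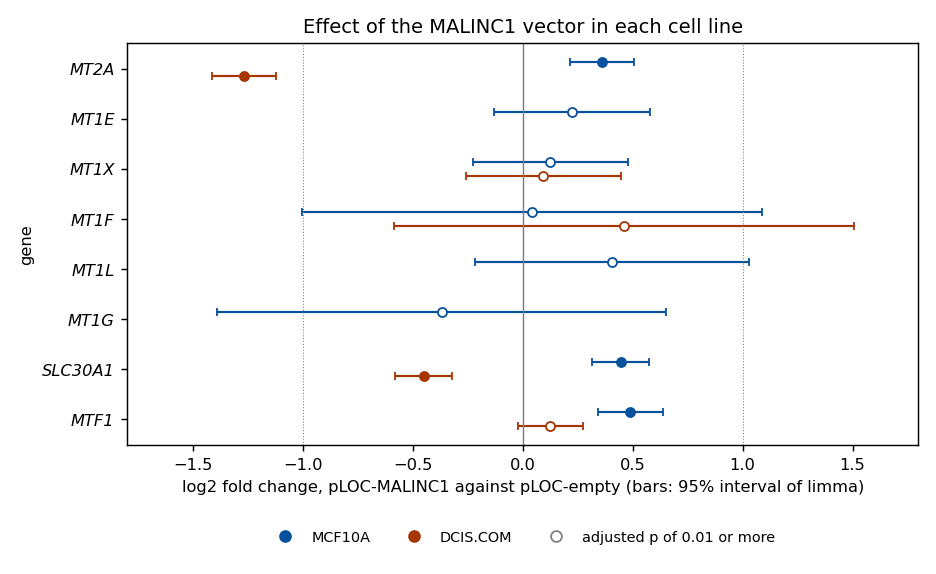
Log2 fold change of pLOC-*MALINC1* against pLOC-empty (x axis) for 8 genes (y axis) in MCF10A (blue) and DCIS.COM (brown), with the 95% interval of limma from 2 libraries a group and open points where the adjusted p was 0.01 or more. *MT2A* and *SLC30A1* lie to the right of 0 in MCF10A and to the left in DCIS.COM, and genes with no more than 3 reads in every DCIS.COM library have no DCIS.COM point.

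None of the MT1 genes passed the test for *MALINC1* in either line. *MT1E*, one of the more abundant isoforms, had 80.3 and 68.5 CPM in MCF10A pLOC-empty and 81.7 and 91.9 CPM in MCF10A pLOC-*MALINC1*. *MT1X* had 59.4 and 55.1 CPM against 56.4 and 69.0 CPM, and in DCIS.COM 1.73 and 1.24 CPM (37 and 26 reads) against 1.81 and 1.36 CPM (62 and 46 reads). The *MT1E* libraries did not overlap in MCF10A while those of *MT1X* overlapped in both lines. The log2 fold change of *MT1E* in MCF10A was 0.22 (95% interval -0.13 to 0.58, adjusted p = 0.271). That of *MT1X* was 0.13 in MCF10A (95% interval -0.23 to 0.48, adjusted p = 0.543) and 0.09 in DCIS.COM (95% interval -0.26 to 0.45, adjusted p = 0.669). These intervals include increases above the one seen for *MT2A* in MCF10A, but the *MT1X* interval in DCIS.COM does not reach a fall of the size of that of *MT2A*. Whether *MT1X* and *MT2A* differed in their response was not tested. On recovered reads with limma-voom, *MT1E* passed in MCF10A (adjusted p = 0.00747).

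The remaining isoforms were low. *MT1F* had 7.69 and 5.84 CPM in MCF10A pLOC-empty and 6.83 and 6.99 CPM in MCF10A pLOC-*MALINC1*, with overlapping groups and a log2 fold change of 0.04 (95% interval -1.005 to 1.09, adjusted p = 0.956). *MT1L* had 1.79 and 1.33 CPM against 1.95 and 2.19 CPM (adjusted p = 0.255), and *MT1G* 1.21 and 1.11 CPM against 0.613 and 1.25 CPM (adjusted p = 0.534). In DCIS.COM *MT1F* was counted with 5 and 0 reads in pLOC-empty and 4 and 5 reads in pLOC-*MALINC1*, *MT1G* with 3 and 0 reads against 0 and 0, and *MT1E* and *MT1L* with 0 reads in all 4 libraries. No fold is given for the last 3 genes in DCIS.COM, since a count of 0 allows a level of up to 3 reads, or 0.0874 to 0.143 CPM. For *MT1F* the DCIS.COM value rested on single libraries: without DCIS.COM pLOC-empty replicate 1 the log2 fold change was 1.51 (adjusted p = 0.00125), and without replicate 2 it was -0.59 (adjusted p = 0.0841).

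Counted as differentially expressed genes (DEGs, an adjusted p under 0.01 and a change of more than 2-fold), 0 of the 8 genes changed in MCF10A, against 5.5% of all genes tested. With limma-voom on recovered reads the number was also 0, and 3 of the 8 had an unadjusted p under 0.05 in limma. In DCIS.COM 1 of 8 (*MT2A*, lower) was a DEG, against 4.53% of all genes in either direction and 3.08% lower. For the difference between the effects it was also 1 of 8 (*MT2A*, lower), against 9.2% of all genes in either direction and 5.22% lower. At an adjusted p under 0.01 and any fold, 3 of 8 rose in MCF10A (*MT2A*, *SLC30A1* and *MTF1*), where 21.5% of all genes did, and 2 of 8 fell in DCIS.COM (*MT2A* and *SLC30A1*), where 16.7% did. The difference was lower in DCIS.COM for 3 of 8, where it was for 20.3% of all genes. The median log2 fold change of the 8 genes was 0.29 in MCF10A, with that of all genes at about 0.

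**Figure D2:**
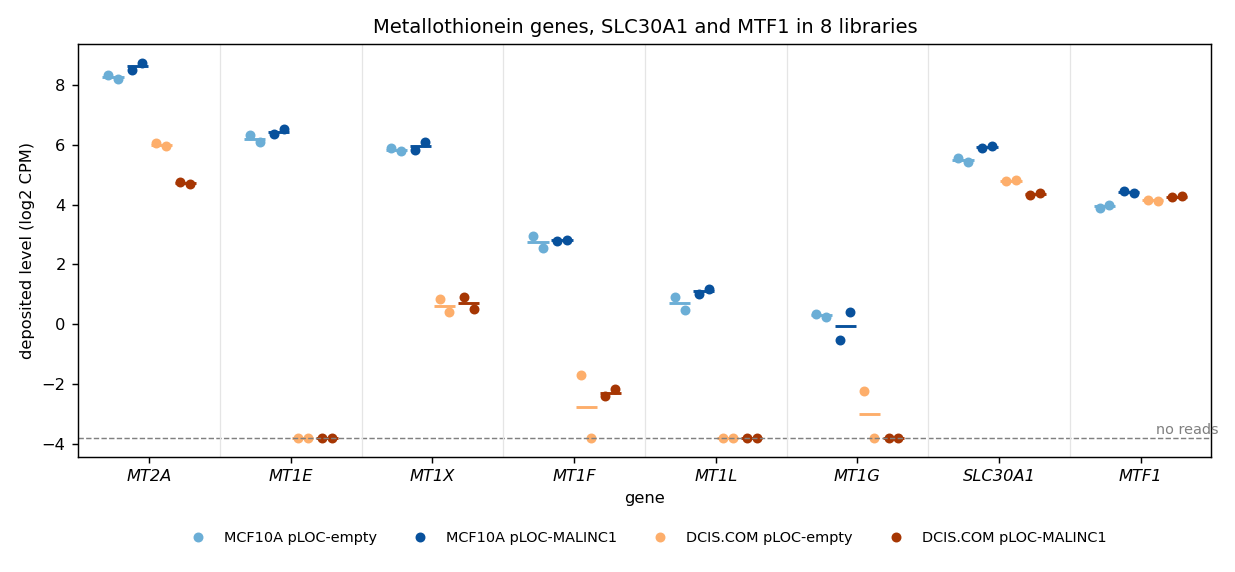
Deposited log2 CPM (y axis, log scale) of each gene (x axis) in 8 libraries. Points are libraries, short lines are group means, and the dashed line is the value that a library without reads takes. *MT1E*, *MT1F*, *MT1G* and *MT1L* are near or at that line in DCIS.COM. *MT1X* and *MT2A* are lower there than in MCF10A but still well above the line, and *SLC30A1* and *MTF1* vary within a narrower range.

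The larger contrast was between the lines. *MT1E*, *MT1F*, *MT1G* and *MT1L* reached 0.5 CPM in no DCIS.COM library. The filter applied here asked for that level in 2 libraries, and every gene of the deposited table passed it. *MT1E*, *MT1F*, *MT1G* and *MT1L* are thus among the tested genes through MCF10A alone and had to be lower in DCIS.COM. Nothing is read from a count that includes them. Of the 4 genes that reached the filter in both lines, 2 were DEGs with pLOC-empty (*MT2A* and *MT1X*), both lower in DCIS.COM. Of all genes, 28.6% were DEGs there in either direction and 13% were lower. With pLOC-*MALINC1* 3 of the 4 were DEGs (*SLC30A1* as well), all lower, against 26.6% of all genes in either direction and 12.2% lower. At any fold *MT2A*, *MT1X* and *SLC30A1* were lower with either vector, where 36% and 37.2% of all genes were. With the genes tested through MCF10A alone counted in, 6 and 7 of the 8 were DEGs, numbers that this selection fixed in part. The summed basal markers given above were lower in DCIS.COM as well, and their part in the metallothionein difference was not tested.

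*MT2A* was 4.85-fold lower in DCIS.COM than in MCF10A with pLOC-empty (log2 fold change -2.28, SE 0.067, adjusted p = 6.44e-12) and 15.0-fold lower with pLOC-*MALINC1* (-3.91, SE 0.067, adjusted p = 8.16e-14). *MT1X* was 37.3-fold and 38.1-fold lower, at log2 fold changes of -5.22 (SE 0.16, adjusted p = 1.07e-11) and -5.25 (SE 0.16, adjusted p = 1.24e-11). The gap between the lines widened with *MALINC1* for *MT2A*, by the test of the difference above. For *MT1X* the change of the gap was -0.03 (95% interval -0.53 to 0.47, adjusted p = 0.923). The 4 groups of *MT2A* fell in the order MCF10A pLOC-*MALINC1*, MCF10A pLOC-empty, DCIS.COM pLOC-empty and DCIS.COM pLOC-*MALINC1*, with no overlap between neighbours.

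*MT1E* had 1547 to 2932 reads in each MCF10A library and none in any DCIS.COM library. Its level was at least 526-fold higher in MCF10A with pLOC-empty and at least 986-fold higher with pLOC-*MALINC1*, against a floor of 3 reads per library. By the same floor *MT1L* was at least 11.02-fold and at least 23.5-fold higher, and *MT1G* at least 10.6-fold higher with pLOC-*MALINC1*. With pLOC-empty *MT1G* had 60 reads in MCF10A and 3 in DCIS.COM, a ratio of levels of 16.4 (95% counting interval 5.36 to 81.9). *MT1F* had ratios of 58.3 (24.8 to 181) and 52.2 (27.3 to 115). The pLOC-empty values of both genes rest on DCIS.COM replicate 1, which held all of the reads there: the fitted log2 fold change of *MT1F* was -6.57 without it and -4.48 without replicate 2, and that of *MT1G* was -4.11 and -2.54. All 4 of these genes were tested through MCF10A alone, so that this selection fixed the direction and no p-value is given for them here.

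*SLC30A1* was lower in DCIS.COM too, at a log2 fold change of -0.68 (SE 0.059, adjusted p = 2.70e-07) with pLOC-empty and -1.57 (SE 0.059, adjusted p = 8.15e-11) with pLOC-*MALINC1*, the latter past 2-fold. *MTF1* differed less, at 0.20 (95% interval 0.05 to 0.35, adjusted p = 0.0174) and -0.17 (95% interval -0.32 to -0.02, adjusted p = 0.0376), with neither past the threshold. The pLOC-empty difference of *MTF1* passed with totals that leave out the RN7SL genes (adjusted p = 0.00115) and with quantile normalization (adjusted p = 0.00823). The pLOC-*MALINC1* difference had a log2 fold change of 0.012 with totals without RN7SL, of the opposite sign to the value above.

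The composition of the metallothionein reads changed with the line. *MT2A* made up 68.3% (95% Wilson interval 67.5 to 69.0) and 69.3% (68.4 to 70.2) of the reads on the 6 genes in MCF10A pLOC-empty, and 71.4% and 71.6% in MCF10A pLOC-*MALINC1*. In DCIS.COM it made up 96.9% (95.9 to 97.7) and 98.0% (97.1 to 98.7) with pLOC-empty and 93.4% (91.7 to 94.8) and 94.5% (92.8 to 95.8) with pLOC-*MALINC1*. The DCIS.COM libraries were therefore all above the MCF10A libraries, and with *MALINC1* the share was the lower one in DCIS.COM and the higher one in MCF10A. The intervals cover counting error only. The summed level of the 6 genes was 474 and 430 CPM in MCF10A pLOC-empty, 516 and 603 CPM in MCF10A pLOC-*MALINC1*, 68.4 and 62.9 CPM in DCIS.COM pLOC-empty and 29.1 and 27.4 CPM in DCIS.COM pLOC-*MALINC1*.

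Per kilobase of the annotated transcript, *MT2A* reached 775 CPM per kb in MCF10A pLOC-empty (SD 45.7, n = 2) and *MT1X* 142 (SD 7.64, n = 2), followed by *MT1E* at 99.8, *MT1F* at 15.9, *SLC30A1* at 7.61, *MT1G* at 2.82 and *MTF1* at 1.93. The libraries of *MT1X* and *MT1E*, neighbours in this order, did not overlap (136 to 147 against 91.8 to 108). Their order rests on the annotated lengths of 404 nt for *MT1X* and 746 nt for *MT1E*. In CPM without length *MT1E* was the higher one there, at 80.3 and 68.5 against 59.4 and 55.1. In DCIS.COM pLOC-empty the order was *MT2A* at 160, *SLC30A1* at 4.74, *MT1X* at 3.67, *MTF1* at 2.21, *MT1F* at 0.274 and *MT1G* at 0.171. The exporter transcript was thus below *MT1X* per length in MCF10A and above it on average in DCIS.COM, where *MT1X* ranged from 3.07 to 4.27. *MT1L* was left out because its annotated transcript is short and all of its 76 nt windows are shared with an overlapping long non-coding RNA.

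Shared sequence bears on the reads of single isoforms. Of the 76 nt windows of the *MT1X* transcript, 35.6% also occur in other genes, among them *MT1G* and *MT1XP1*, as do 6.27% of those of *MT1G* (in *MT1X* and *MT1XP1*) and 1.49% of those of *MT1E* (in *MT1G*). *MT2A*, *MT1F* and *SLC30A1* had none. How the counting handled reads that fit several genes is not given in the sources used here, so that the levels of *MT1X*, *MT1G* and *MT1L* are uncertain to that extent.

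The chromosomal surroundings showed no drop of this size. Of 10 other tested genes within 500 kb of the cluster, 1 was a DEG between the lines with pLOC-empty (*GNAO1*, -1.36) and 0 with pLOC-*MALINC1*. Of all genes, 28.6% and 26.6% were. Log2 fold changes of the 10 ranged from -1.36 to 0.17 (median -0.50) and from -0.63 to 0.68 (median -0.12). At any fold 7 of 10 were lower with pLOC-empty, where 36% of all genes were. With pLOC-*MALINC1* 4 were lower and 2 higher, where 37.2% of all genes were lower. The nearest on each side were *BBS2*, which encodes a ciliary protein, at -0.73 and -0.14, and *NUP93*, which encodes a nuclear pore protein, at 0.07 and 0.01. The metallothionein genes between them were at -2.28 or lower, of which *MT1E*, *MT1F*, *MT1G* and *MT1L* were tested through MCF10A alone and had to be lower.

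**Figure D3:**
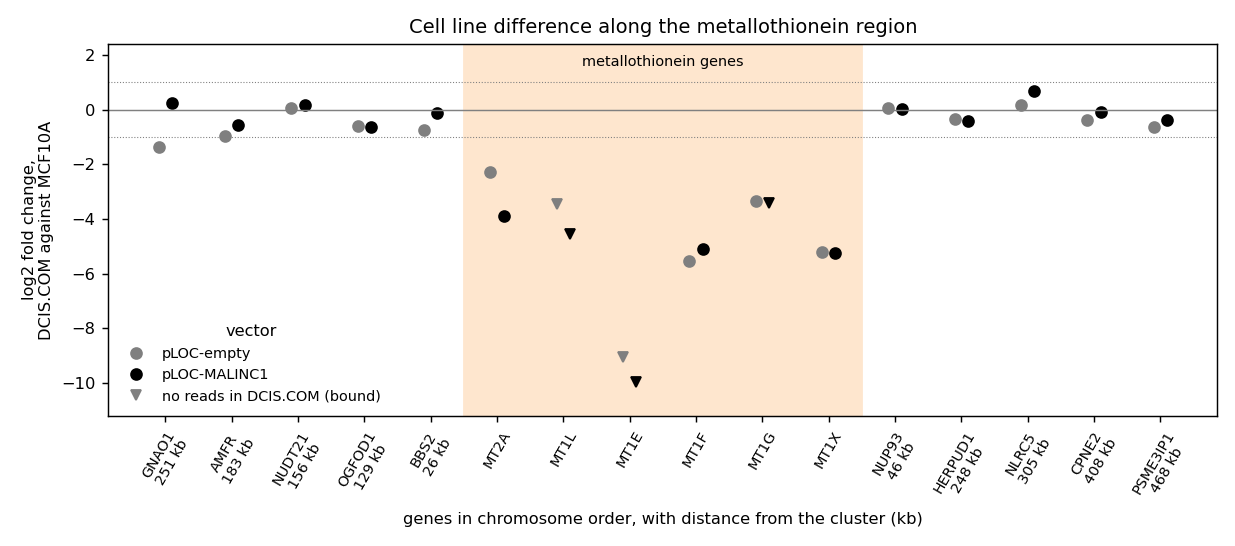
Log2 fold change of DCIS.COM against MCF10A (y axis) for the metallothionein genes (shaded) and 10 neighbours in chromosome order (x axis, with distance in kb), for pLOC-empty (grey) and pLOC-*MALINC1* (black). Triangles are bounds for genes without reads in DCIS.COM, and the metallothionein genes are at -2.28 or below while every neighbour lies between -1.36 and 0.68.

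The SLC39 (ZIP) family carries zinc into the cytosol, and 11 of 14 listed genes were tested. With *MALINC1* in MCF10A 3 rose (*SLC39A4*, *SLC39A6* and *SLC39A14*) and 0 fell at an adjusted p under 0.01, where 21.5% and 18.1% of all genes did. The median log2 fold change was 0.06. In DCIS.COM 0 rose and 6 fell, with a median of -0.15, where 16.7% of all genes fell at any fold. The largest fall was in *SLC39A10*, a plasma membrane importer, which had 138 and 143 CPM with pLOC-empty against 76.9 and 73.7 CPM with pLOC-*MALINC1* (log2 fold change -0.90, SE 0.041, adjusted p = 5.36e-09). *SLC39A8* (-0.47), *SLC39A14* (-0.44), *SLC39A1* (-0.25), *SLC39A6* (-0.17) and *SLC39A9* (-0.14) were the others that fell. None passed 2-fold in either line. The 6 that fell in DCIS.COM were also the 6 with a lower effect there than in MCF10A in the test of the difference, between -0.76 (*SLC39A10*) and -0.26 (*SLC39A9*). Of all genes, 20.3% had a lower effect in that test.

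Of the other SLC30 (ZnT) exporters, 5 of 9 listed genes were tested. *SLC30A7*, which loads zinc into the Golgi, rose in both lines: it had 41.5 and 39.7 CPM against 58.8 and 56.0 CPM in MCF10A (log2 fold change 0.50, adjusted p = 1.02e-05) and 48.1 and 44.9 CPM against 59.3 and 64.6 CPM in DCIS.COM (0.41, adjusted p = 6.07e-05). Its libraries did not overlap between vectors in either line. In MCF10A 3 of 5 rose and 1 fell (*SLC30A4*, -0.41), where 21.5% and 18.1% of all genes did. In DCIS.COM only *SLC30A7* passed the test. For the difference of the effects 0 of 5 passed.

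**Figure D4:**
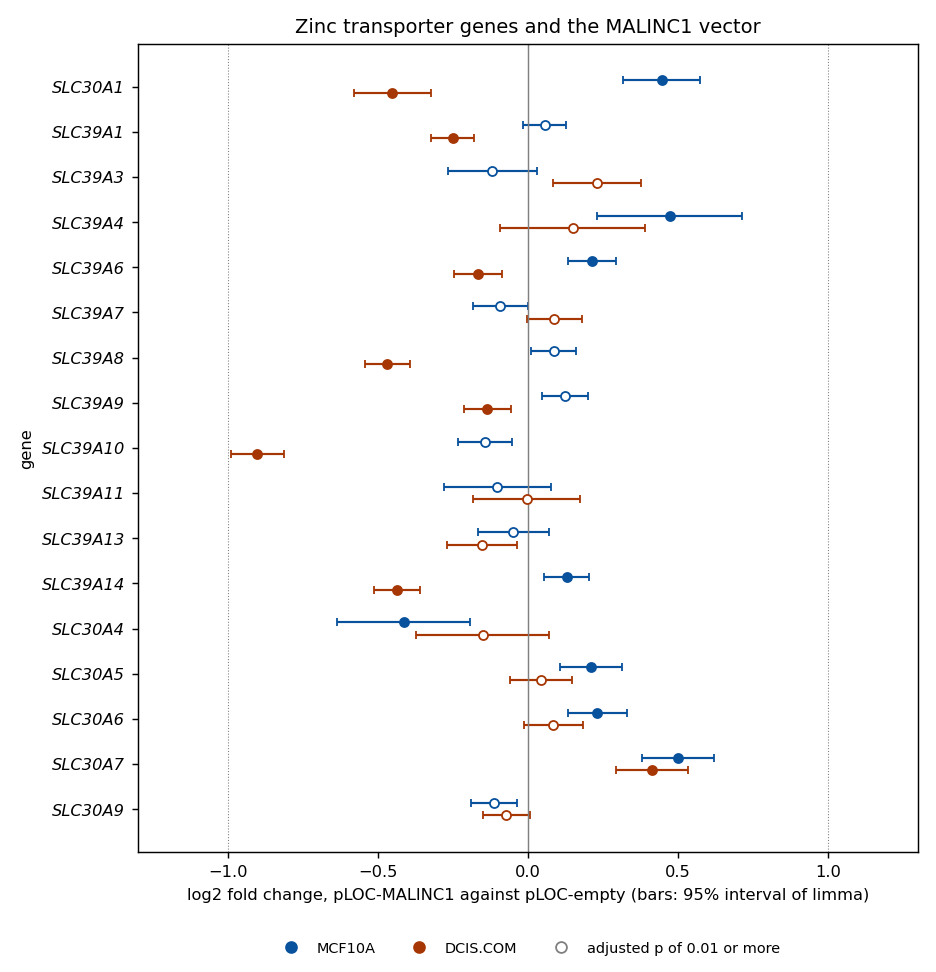
Log2 fold change of pLOC-*MALINC1* against pLOC-empty (x axis, with the 95% interval of limma) for the zinc transporter genes tested (y axis) in MCF10A (blue) and DCIS.COM (brown); open points had an adjusted p of 0.01 or more. *SLC30A1* changes sign between the lines, *SLC39A10* has the lowest value in DCIS.COM at -0.90, and *SLC30A7* is to the right of 0 in both.

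Between the lines, *SLC39A4*, a zinc importer, was a DEG with either vector (-1.13 with pLOC-empty and -1.46 with pLOC-*MALINC1*), while *SLC39A8* (-1.42) and *SLC39A13* (-1.02) were DEGs with pLOC-*MALINC1*. At any fold 4 importers were higher and 4 lower with pLOC-empty, where 36% of all genes were lower. With pLOC-*MALINC1* 2 were higher and 8 lower, where 37.2% of all genes were lower. None of the 5 other exporters was a DEG between the lines, where 28.6% (pLOC-empty) and 26.6% (pLOC-*MALINC1*) of all genes were. Of 9 copper-handling genes, 1 was a DEG between the lines: *SLC31A2*, a copper transporter, had 18.8 and 18.2 CPM in MCF10A pLOC-empty against 5.46 and 5.35 CPM in DCIS.COM pLOC-empty (-1.76), and 21.8 and 22.4 CPM against 4.14 and 3.61 CPM with pLOC-*MALINC1* (-2.49). With *MALINC1* its change was 0.26 on the log2 scale in MCF10A (adjusted p = 0.0378), and it fell by 0.48 on the log2 scale in DCIS.COM (adjusted p = 0.00140). No copper gene was a DEG for *MALINC1* in either line. At any fold 3 rose in MCF10A, where 21.5% of all genes did, and 1 fell in DCIS.COM, where 16.7% did.

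Glucocorticoid-responsive genes were read beside the metallothioneins because hydrocortisone was in the medium of MCF10A alone. Of 9 listed genes, 7 were DEGs lower in DCIS.COM with pLOC-empty, where 13% of all genes were, and 2 were DEGs higher (*CEBPD* and *ERRFI1*). With pLOC-*MALINC1* 6 were DEGs lower, where 12.2% of all genes were, and 1 was higher. *FKBP5*, which encodes a cochaperone of the glucocorticoid receptor, had 513 and 519 CPM in MCF10A pLOC-empty, 288 and 289 CPM in MCF10A pLOC-*MALINC1*, 17.5 and 18.5 CPM in DCIS.COM pLOC-empty and 25.0 and 26.0 CPM in DCIS.COM pLOC-*MALINC1*. Its difference between the lines was -4.84 with pLOC-empty and -3.50 with pLOC-*MALINC1*. *ZBTB16*, which encodes a zinc finger transcription factor, had no reads in any DCIS.COM library and 9.55 and 9.08 CPM in MCF10A pLOC-empty. It too was tested through MCF10A alone and had to be lower, and both counts of lower genes above include it. Summed over the list, levels were 955 and 960 CPM in MCF10A pLOC-empty, 556 and 552 CPM in MCF10A pLOC-*MALINC1*, 303 and 313 CPM in DCIS.COM pLOC-empty and 261 and 262 CPM in DCIS.COM pLOC-*MALINC1*. The part of these genes in the metallothionein difference was not tested.

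Within the lines, where the medium was shared, *MT2A* and this list are set side by side. With *MALINC1* in MCF10A 3 of the 9 were DEGs, all lower (*ZBTB16* -2.75, *TSC22D3* -1.25 and *DUSP1* -1.05), against 5.5% of all genes in either direction. At any fold 7 of 9 fell, where 18.1% of all genes did. *CEBPD* (0.89, adjusted p = 1.25e-05) and *MT2A* rose. In DCIS.COM 2 were DEGs, both lower (*TSC22D3* -1.60 and *CEBPD* -1.28), where 3.08% of all genes were. *FKBP5* (0.50), *SGK1* (0.54) and *DUSP1* (0.43) rose, while *PER1* (-0.89) and *ERRFI1* (-0.42) fell, as did *MT2A*. The 4 DEGs with a higher effect in DCIS.COM than in MCF10A were *ZBTB16*, *DUSP1*, *SGK1* and *FKBP5*, and *CEBPD* was the 1 with a lower effect. Of all genes, 9.2% were DEGs for this difference in either direction.

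**Figure D5:**
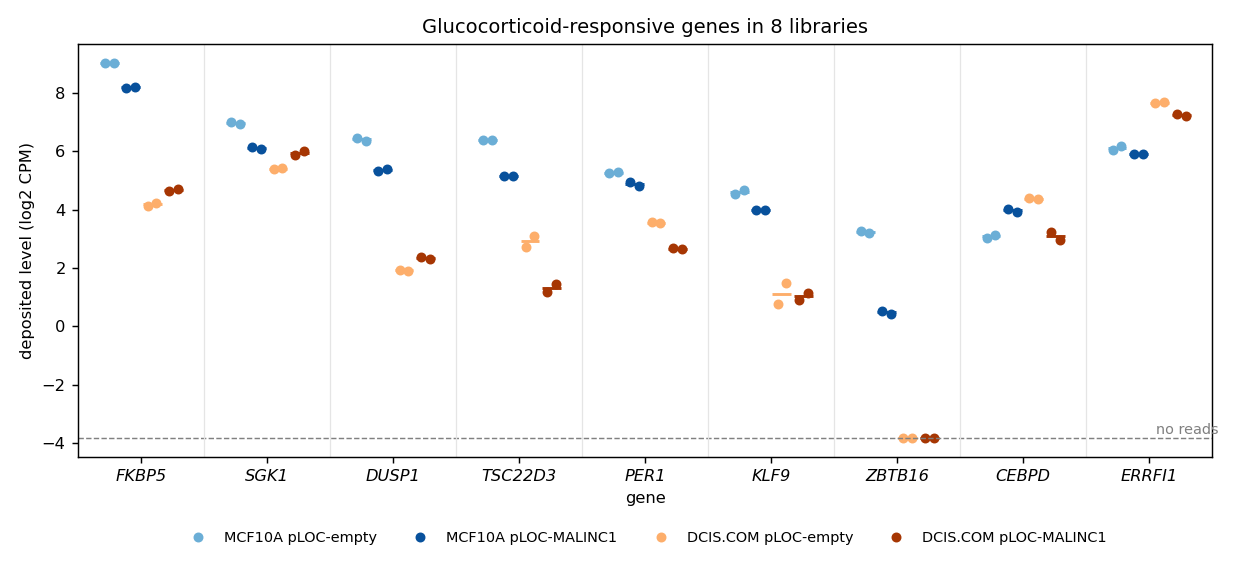
Deposited log2 CPM (y axis, log scale) of 9 glucocorticoid-responsive genes (x axis) in 8 libraries, with points for libraries and short lines for group means; the dashed line is the value without reads. *FKBP5*, *DUSP1*, *TSC22D3* and *KLF9* are higher in MCF10A than in DCIS.COM with either vector, and *ZBTB16* has no reads in DCIS.COM.

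Of 8 oxidative stress genes, *HMOX1*, which encodes heme oxygenase, was the 1 DEG for *MALINC1* in MCF10A (12.03 and 11.7 CPM against 5.04 and 4.80 CPM, log2 fold change -1.26), and 0 were DEGs in DCIS.COM. Of all genes, 5.5% and 4.53% were DEGs in these comparisons. Between the lines with pLOC-empty 3 were DEGs, all lower in DCIS.COM, where 13% of all genes were. Among them were *HMOX1* (-2.07) and *GCLM* (-1.61), which encodes a subunit of the enzyme that starts glutathione synthesis. With pLOC-*MALINC1* 1 remained past the threshold, *GCLM* at -1.15, where 12.2% of all genes were DEGs lower in DCIS.COM.

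The genes whose pattern over the 8 libraries was most like that of a member were ranked by the root mean square difference of centred log2 CPM. For *MT2A* these were *MMP28* (0.20), *GAS6* (0.21) and *PTHLH* (0.21), with *MT1G* as the closest member (0.56, rank 114). For *SLC30A1* they were *GLUD1* (0.09), *PPP3CC* (0.10) and *CNN3* (0.10), and for *MTF1* they were *SYDE2* and *RPL7L1*, both at 0.04. *MT1E* was closest to *H4C13* (0.27), *MT1F* to *DNAJA4* (0.30), *MT1G* to *PLAAT2* (0.31), *MT1L* to *KRT16P2* (0.21) and *MT1X* to *PWAR5* (0.18). Among the MT1 genes, *MT1X* and *MT1L* were each other's closest member (0.33), and *MT1X* ranked 3 for *MT1F*. *MT1E*, *MT1F*, *MT1G* and *MT1L* had few or no reads in DCIS.COM. The size of their drop is set largely by the MCF10A level and the value that a library without reads takes. Nothing is therefore read from ranks that involve these genes.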

How the data were processed

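RNA from subconfluent plates was prepared with the ScriptSeq v2 kit and sequenced as 76 nt paired-end reads by the authors, who aligned them to hg19 with Rsubread, counted them with featureCounts on UCSC genes and normalized them with edgeR. The deposited values are log2 CPM, in which every gene had a prior count of 2 reads scaled to the library size. Strandedness of counting, any expression filter and tool versions are not given in the sources used here. Reads were recovered from the log2 CPM, with 100% of values whole within 0.05, and CPM levels are given without the prior.

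The fit used limma (version 3.58.1, under R 4.3.3) with lmFit and a trended eBayes, a mean for each of 4 groups over 8 libraries and Benjamini-Hochberg adjustment over all 13842 genes, of which 346 have no symbol. The steps were tested on simulated data. A DEG had an adjusted p under 0.01 and a change of more than 2-fold. Other settings changed the pseudocount, filter, scaling and model, or left out 1 library at a time. Depth was 20604377 to 37550457 reads on genes, so 3 reads were 0.0836 to 0.143 CPM. Replicates differed by more than counting noise (chi-square per degree of freedom 3.30 to 20.6).

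The text names all members, pathway list genes that were DEGs and reached 5 CPM in the higher of the groups (at most 4 for the glucocorticoid and oxidative stress lists), up to 3 genes most like each member, and *MALINC1*. Some genes under this rule are not reported here. Other list genes with values were chosen after their values were seen. Members and lists were chosen with earlier results of these data known, and the list of neighbours within 500 kb was added after the files had been seen. Of a further 10 metallothionein genes listed, 0 were tested. Promoters are RefSeq (GRCh38.p14) and gene positions GENCODE (GRCh37). Further software was pandas 2.3.3, numpy 2.4.6 and matplotlib 3.10.9 under Python 3.11.15.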

Additional observations from a re-analysis of the deposited data

Results flagged for a closer look

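For 3 genes the effect of *MALINC1* differed between the lines by the test of the difference itself (DCIS.COM minus MCF10A, log2 scale). The difference was -1.63 for *MT2A* (adjusted p = 3.80e-08 by limma) and -0.90 for *SLC30A1* (adjusted p = 3.00e-06), with effects of opposite sign in the lines in both cases. It was -0.36 for *MTF1* (adjusted p = 0.00753), which rose in MCF10A and did not pass the test in DCIS.COM. The *MTF1* difference is weaker than the others in this respect: 11 of 18 alternatives left it at an adjusted p of 0.01 or more (up to 0.0335), whereas the differences of *MT2A* and *SLC30A1* stayed under 0.01 in all 18. All 4 libraries of each line enter these tests, and the cause was not tested.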

How the results depend on the processing

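Over 34 fold changes of the 8 genes and 638 alternatives, 620 kept their direction and their side of the threshold. Part of these could not have differed in fold change. The fit without a filter equalled the main one, since every gene passed the filter. Fits without the trend, with a replicate block or on the compared groups alone kept the fold change, as did leaving out a library of a group not compared. At an adjusted p under 0.01 and any fold, 3 genes passed in MCF10A, 2 in DCIS.COM and 3 for the difference of the effects, against 0, 1 and 1 with the 2-fold limit. When 1 library at a time was left out, the number of DEGs was 0 to 0 in MCF10A, 1 to 2 in DCIS.COM, 1 to 2 for the difference, 6 to 6 between the lines with pLOC-empty and 7 to 7 with pLOC-*MALINC1*. The added gene was *MT1F* without DCIS.COM pLOC-empty replicate 1 (1.51 in DCIS.COM and 1.47 for the difference), and a group with 1 library was assumed to vary like the others.

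The 15 reversals were all in values that had not passed the test. In MCF10A, leaving out 1 library gave -0.15 to 0.24 for *MT1F*, -0.84 to 0.10 for *MT1G* and -0.020 to 0.27 for *MT1X*. In DCIS.COM it gave -0.59 to 1.51 for *MT1F*, and -0.13 to 0.32 for *MT1X* with -0.10 between them. For the difference, *MT1F* was -0.0082 with a pseudocount of 1 CPM and -0.63 to 1.47 without a library, and *MT1X* was 0.10 with quantile normalization, 0.043 with totals without RN7SL genes, and -0.26 to 0.20 without a library. *MTF1* between the lines with pLOC-*MALINC1* was 0.012 with totals without RN7SL, a scaling that moved the median of all genes by 0.10 (pLOC-empty) and 0.18 (pLOC-*MALINC1*) in the line comparisons. With a pseudocount of 1 CPM *MT1G* was at -0.93 there and no longer past 2-fold. RN7SL genes held 8.22% to 15.7% of the reads.

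Replicate numbers gave no clear sign of pairing, with correlations of deviations between same-numbered libraries from -0.16 to 0.11. These values cannot show whether same-numbered libraries were prepared together. With the replicate block, 0, 1, 1, 6 and 7 genes were DEGs in the 5 comparisons, as without it, and the *MTF1* difference had an adjusted p of 0.0113. The 6 and 7 include the 4 genes tested through MCF10A alone. Depth limits the low isoforms: *MT1E*, *MT1G* and *MT1L* in DCIS.COM are known only to be at or under 3 reads per library.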
